A study of Mus musculus with 18 samples.

Results

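Receptors and enzymes of lysophospholipid signalling were followed in the brains of Brca1 knockout mice at postnatal day 7. The 7 genes are Lpar1, Lpar4, S1pr1, S1pr3, S1pr5, Enpp2 and Plpp3. Lpar1 was chosen by its measured change, which is opposite in the cortex and in the samples titled rest, so its values are a description and carry no test. The other genes were added as relatives of Lpar1 in the pathway, with earlier results of these data known. Every probe set annotated to exactly 1 of the genes was taken: 13 distinct probe sets of 6 genes, which make 9 of 22626 probe sets on the cortex A chip, 4 of 22511 on the cortex B chip and 13 of 45037 in the rest table. No probe set was annotated to Enpp2 in the annotation used, so Enpp2 was not analysed here.

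The knockout mice were conditional: one Brca1 allele was floxed around exons 5-13, the other was null through a neo cassette inserted in inverted orientation in exon 11, and nestin Cre was used, so that recombination follows the nestin promoter of neural progenitors. Whether the wild-type mice carried Cre or a floxed allele is not stated. Each table held 3 knockout and 3 wild-type arrays, hybridised with total RNA of P7 cortex (A chip and B chip) or of P7 brain titled rest. The labels do not say which regions rest covers, or whether one animal gave both tissues, and p-values measure the spread between these arrays. Signals were brought to a common level within each table only, so levels are not compared between tables. Rest was hybridised to an array design other than the cortex chips. A difference between rest and cortex is therefore also one between array designs, and these arrays cannot separate tissue from design.

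Many cells of the tables are blank: between 54% and 58% of probe sets per array had a signal on the A chip, between 33.6% and 42.6% on the B chip, and between 49.2% and 51.6% in rest. Precision is limited by the number of arrays. The Brca1 probe set that was listed throughout read 51.4, 44 and 61.4 in knockout cortices, against 38, 36.9 and 48.9 in wild-type cortices (log2 change 0.25, SE 0.159, limma adjusted p = 0.496). In rest it read 118, 86 and 135 in the knockouts and 102, 112 and 114 in the wild types (log2 change 0.03, SE 0.17, limma adjusted p = 0.978), so a lower Brca1 transcript was not detected. The exons read by that probe set are not given. The Y-linked transcript Eif2s3y was listed in knockout replicates 1 and 2 of every table and in no other array, so genotype is partly joined with sex and knockout replicate 3 is the one knockout that lacks it. All 8 neuronal marker genes annotated on the A chip and all 9 in the rest table were measured. On the A chip 1 of the 8 was lower in knockout cortex, Gad1 (log2 change -0.58, limma adjusted p = 0.0207). Of all probe sets tested on that chip, 3.02% passed an adjusted p of 0.05. No other neuronal gene passed on the A chip, and none did on the B chip or in rest.

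Lysophosphatidic acid (LPA) and sphingosine 1-phosphate (S1P) are small lipids that act outside the cell through G protein-coupled receptors. LPA is made by the secreted enzyme autotaxin, the product of Enpp2, and is sensed by receptors such as Lpar1 and Lpar4. S1P is sensed by receptors such as S1pr1, S1pr3 and S1pr5, and Plpp3 is a membrane phosphatase that degrades both lipids. In the brain Lpar1 is known from neural progenitors and from oligodendrocytes as they mature, S1pr5 from oligodendrocytes, S1pr1 from endothelial cells and astrocytes, and Plpp3 from astrocytes.

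The upstream sequences of S1pr3 and S1pr5 are shown because S1pr3 is the member called in the knockouts, in cortex, and S1pr5 is the other S1P receptor whose listed arrays separated by genotype, in rest, where it did not pass the test. Each is the 250 bases before the RefSeq start of the gene (GRCm38.p6), S1pr3 at chr13:51408368-51408617 on the plus strand and S1pr5 at chr9:21248444-21248693 on the minus strand. Capitals mark the GC box letters GGGCGG, searched on both strands.
S1pr3: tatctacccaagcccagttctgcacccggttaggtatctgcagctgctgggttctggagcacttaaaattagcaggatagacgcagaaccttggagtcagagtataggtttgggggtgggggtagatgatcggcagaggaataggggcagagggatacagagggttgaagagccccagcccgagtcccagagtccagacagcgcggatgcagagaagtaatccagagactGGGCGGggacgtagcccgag
S1pr5: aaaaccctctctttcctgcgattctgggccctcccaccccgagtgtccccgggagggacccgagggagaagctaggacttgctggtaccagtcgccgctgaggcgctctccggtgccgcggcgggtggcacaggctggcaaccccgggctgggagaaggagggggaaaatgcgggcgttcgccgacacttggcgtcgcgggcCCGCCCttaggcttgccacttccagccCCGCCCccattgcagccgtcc
S1pr3 had 1 GC box and 56.4% G and C, and S1pr5 had 2 GC boxes and 69.2%. Of 32851 promoter windows of the same length, 32.7% held a GC box, and the median content of G and C was 52.4%. Neither window held the TATA box letters TATAAA or the Sox motif ACAAAG, which 12.4% and 16.5% of all windows held. A match describes the letters and is no evidence of binding. For Lpar1 the table records several starts inside the gene, and no Lpar1 sequence is shown.

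Lpar1 was higher in knockout cortex and lower in knockout rest. On the cortex A chip, probe set 1448606_at read 279.8, 273 and 204 in knockout replicates 1, 2 and 3, against 101, 82.4 and 91.5 in the wild types. All 3 knockouts lay above all 3 wild types, with replicate 3 the lowest knockout. The means were 252 ± 41.7 in knockout and 91.6 ± 9.26 in wild-type cortex (SD, n = 3 each), a ratio of 2.75 and a log2 change, knockout minus wild type, of 1.31 (SE 0.143). In rest the same probe set read 217, 201 and 299 in the knockouts, against 389, 354 and 323 in the wild types. Here all 3 knockouts lay below all 3 wild types, and replicate 3 was the highest knockout. The means were 239 ± 52.9 in knockout and 355 ± 33 in wild-type rest (SD, n = 3 each), a ratio of 0.672 and a log2 change of -0.56 (SE 0.151). The log2 change in rest minus that in cortex was -1.87 (SE 0.217).

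The other Lpar1 probe sets differed in how far they separated the groups. Probe set 1417143_at read 114, 103 and 103 in knockout cortices and 41.7, 34.2 and 61.8 in wild-type cortices, again without overlap (log2 change 1.01, SE 0.172). In rest it read 108, 132 and 187 in the knockouts and 198, 131 and 193 in the wild types. These groups overlapped, since wild-type replicate 2 lay below 2 of the knockouts, and the log2 change was -0.28 (SE 0.211). Probe set 1426110_a_at was listed on the A chip only in knockout replicates 2 and 3, at 102 and 68.6, and was blank in all wild types, so no fold change was computed. In rest it was blank in knockout replicate 1 and read 71.5 and 99 in the other knockouts, against 105, 91.6 and 102 in the wild types, with overlap (log2 change -0.20, SE 0.182, from 2 knockouts and 3 wild types). Knockout replicate 3 was the highest listed knockout of all 3 probe sets in rest. With a term for the Eif2s3y pattern, which sets this replicate alone against the wild types, the log2 change in rest was -0.23 for 1448606_at and 0.11 for 1417143_at, and that of 1448606_at in cortex was 1.04. Without knockout replicate 1, 1417143_at changed by -0.12 in rest, and without knockout replicate 3 by -0.47.

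**Figure D1:**
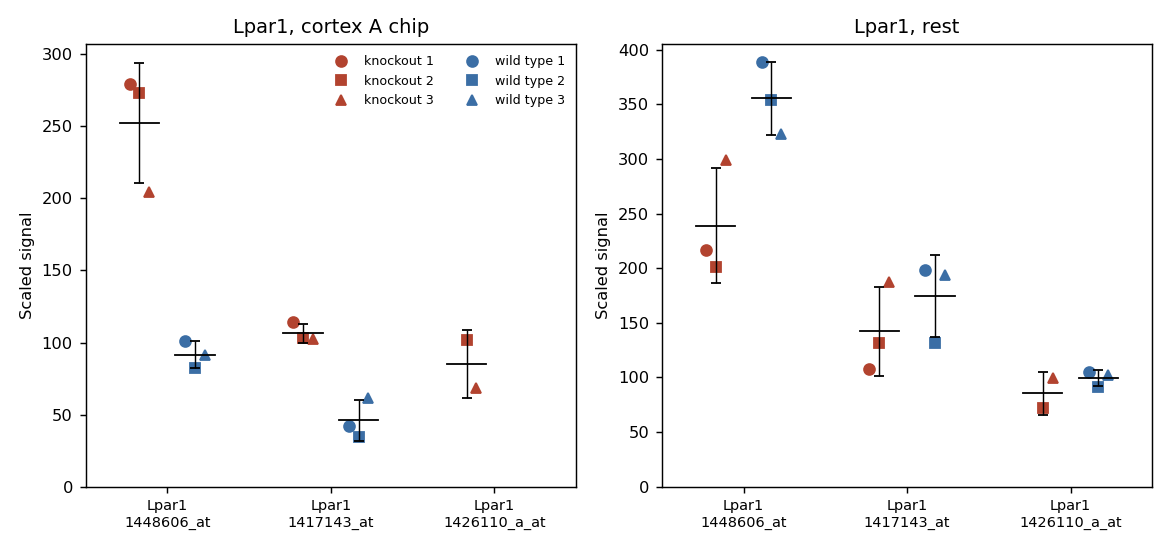
Scaled signal of each Lpar1 probe set on every array of the cortex A chip (left) and the rest table (right), knockout in red left of wild type in blue, with lines for the mean and bars for the SD; blank arrays have no point. The cortical knockouts of 1448606_at lie between 204 and 279.8, above the wild types, and the rest knockouts lie between 201 and 299, below the wild types.

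Background shares help to read the separation of groups. Among all probe sets tested, the groups did not overlap, in either direction, for 22.5% on the A chip, 15.9% on the B chip and 17.6% in the rest table. Lpar1, chosen on these values, had 2 of 2 probe sets without overlap on the A chip and 1 of 3 in rest. Of the probe sets of the other members, 1 of 3 on the A chip, 1 of 1 on the B chip and 4 of 7 in rest had groups that did not overlap.

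S1pr3, a receptor of S1P, rose in knockout cortex by the 1 probe set that could be tested there. On the B chip probe set 1438658_a_at read 848, 869 and 692 in the knockouts, against 329.5, 379.9 and 376 in the wild types. The groups were far apart, with every knockout above every wild type. The means were 803 ± 96.9 in knockout and 362 ± 28 in wild-type cortex (SD, n = 3 each), a ratio of 2.22. On the log2 scale the change was 1.11 with an SE of 0.154 (adjusted p by limma = 0.00561). With a term for the Eif2s3y pattern, which leaves knockout replicate 3 alone to set against the wild types, the change was 0.91 and the call was lost (adjusted p by limma = 0.0754). This was the 1 member probe set called on the B chip, of 1 tested. Of all 7838 probe sets tested on that chip, 0.23% were called higher in knockout and 0.281% were called in either direction.

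A further S1pr3 probe set of the B chip, 1437173_at, read 224, 319 and 280.02 in the knockouts and 232 in wild-type replicate 1, and was blank in the remaining wild types. Knockout replicate 1 lay below that wild type, so the listed arrays overlapped. With 1 listed wild type, 1437173_at could not be tested. In rest both tested S1pr3 probe sets were higher in every knockout than in every listed wild type, but neither passed the test. Probe set 1438658_a_at read 359, 254 and 274 in knockout rest, against 215, 201 and 191 in wild-type rest (log2 change 0.50, SE 0.14, limma adjusted p = 0.238). Probe set 1437173_at read 155, 110.2 and 135 in the knockouts, against 83.2 and 98.5 in wild-type replicates 1 and 3 (log2 change 0.48, SE 0.184, limma adjusted p = 0.412). The probe set 1460661_at was blank on the A chip and was listed in rest only in knockout replicate 1, at 116. The change of 1438658_a_at in rest minus that in cortex was -0.61 on the log2 scale (SE 0.205), which did not pass (limma adjusted p = 0.474). A difference of S1pr3 between the tissues was therefore not shown.

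**Figure D2:**
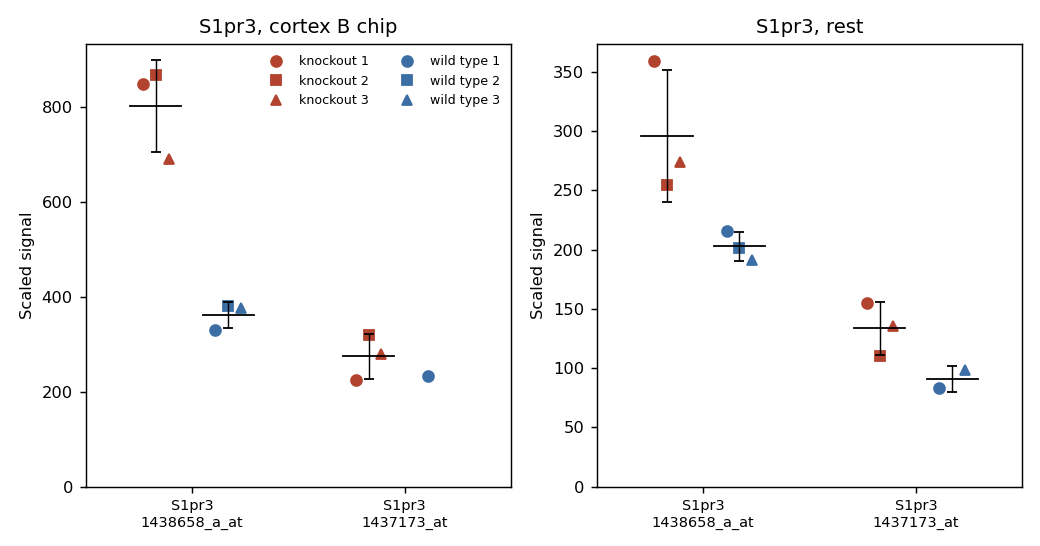
Scaled signal of the S1pr3 probe sets listed on most arrays, for the cortex B chip (left) and the rest table (right), knockout in red left of wild type in blue, with lines for the mean and bars for the SD; blank arrays have no point. For 1438658_a_at the knockouts lie above the wild types in both tables, between 692 and 869 in cortex and between 254 and 359 in rest.

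S1pr5, the S1P receptor known from oligodendrocytes, was blank on every array of the A chip. In rest its probe set read 22 and 30.1 in knockout replicates 1 and 3, was blank in replicate 2, and read 43.3, 43.5 and 55.9 in the wild types. Both listed knockouts lay below all wild types at these low signals (log2 change -0.60, SE 0.196, from 2 knockouts and 3 wild types), and the difference did not pass (limma adjusted p = 0.328). S1pr1, known from vessels and astrocytes, showed no separation. It read 285, 361 and 260.4 in knockout cortices and 319, 262 and 375 in wild-type cortices (log2 change -0.07, SE 0.148, limma adjusted p = 0.867). In rest it read 425, 416 and 534 in the knockouts and 493, 480.1 and 476 in the wild types (log2 change -0.08, SE 0.108, limma adjusted p = 0.853).

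Lpar4, an LPA receptor, had low signals and many blanks. Its probe set 1439665_at read 88.9, 77.7 and 58.5 in all 3 knockout cortices on the B chip and 54.6 in wild-type replicate 2, and was blank in the other wild types, so it was not tested. In rest it read 17.6 and 27.8 in knockout replicates 1 and 2, against 31.8 and 21.9 in wild-type replicates 2 and 3 and the groups overlapped (log2 change -0.15 with an SE of 0.244, adjusted p by limma = 0.889). Its remaining probe sets were blank but for 1 array on the B chip and 1 in rest.

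Plpp3, the phosphatase that degrades LPA and S1P, had small differences of opposite sign in the tissues, none of which passed. Probe set 1448908_at read 1087, 1154 and 1015.5 in knockout cortices, against 922, 845 and 988 in wild-type cortices. The groups did not overlap, yet the log2 change of 0.24 (SE 0.0831) did not pass (limma adjusted p = 0.181). In rest it read 1791.5, 1807 and 1684.5 in the knockouts, against 2148, 2213 and 1911 in the wild types (log2 change -0.24, SE 0.0735, limma adjusted p = 0.266). The knockouts thus lay above the wild types in cortex and below them in rest, the same arrangement as for Lpar1 and at a smaller size. The change in rest minus that in cortex was -0.48 (SE 0.11) and did not pass (limma adjusted p = 0.145). Probe set 1429514_at read 1379.9, 1500.1 and 1340.1 in knockout cortices and 1247, 1156.5 and 1370.3 in wild-type cortices, with overlap (log2 change 0.16, SE 0.0814, limma adjusted p = 0.379). In rest it read 2853, 2844 and 3070.5 in the knockouts and 2955, 3005 and 2950.2 in the wild types, also with overlap (log2 change -0.02, SE 0.0588, limma adjusted p = 0.928).

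**Figure D3:**
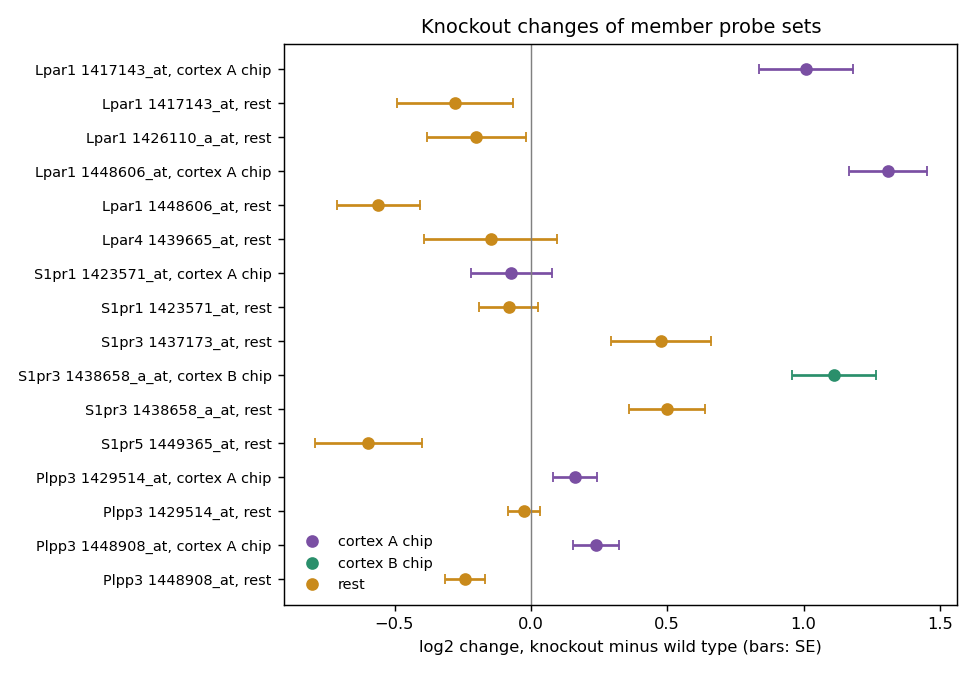
Log2 change, knockout minus wild type, of every member probe set listed on at least 2 arrays of each genotype, with the SE of the limma fit as bars and colours for the 3 tables. The cortical Lpar1 changes of 1.01 and 1.31 and the cortical S1pr3 change of 1.11 lie farthest to the right, and S1pr5 and Lpar1 1448606_at in rest, at -0.60 and -0.56, farthest to the left.

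Leaving Lpar1 aside, limma called 0 of 3 member probe sets on the A chip, where 3.02% of all 12065 tested were called, and 0 of 7 in rest, where 0.313% of 21407 were called. At an unadjusted p under 0.05 there were 1 of 3 on the A chip, against 15.7% of all tested, and 4 of 7 in rest, against 10.5%. The 4 in rest were both S1pr3 probe sets, S1pr5 and Plpp3 1448908_at. For the difference between rest and cortex limma called 0 of 3 members shared with the A chip and 0 of 1 shared with the B chip, and over all shared probe sets 0.0502% of 11959 and 0% of 6563 were called. At an unadjusted p under 0.05 there were 1 of 3 and 1 of 1 members, against 10.5% and 7.94% of all shared probe sets.

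Among the other genes of the pathway, the A chip gave the only calls. The list held 77 genes: further receptors, enzymes that make and degrade LPA and S1P, carriers, acyltransferases, and G proteins with genes downstream of them. On the A chip 38 of them were measured, of which 2 rose and 0 fell, where 3.02% of all probe sets tested were called. At an unadjusted limma p under 0.05 there were 7 of 38, against 15.7% of all probe sets tested. In each table the pathway counts are of genes, each read by its brightest tested probe set. The shares are over single probe sets, so the units differ. The median log2 change on the A chip was 0.01, against -0.01 over all probe sets tested. Ccn2, a secreted matricellular protein, read 285, 307 and 426 in knockout cortices, against 120.2, 175 and 151 in wild-type cortices, without overlap (log2 change 1.10, SE 0.167, limma adjusted p = 0.00448). Myl9, a light chain of smooth muscle myosin, read 179, 224 and 174 in knockout cortices, against 115, 123 and 129.8 in wild-type cortices (log2 change 0.58, SE 0.128, limma adjusted p = 0.0352). The Myl9 call was lost in 10 of 20 alternatives, among them each fit without 1 of the 6 arrays. In those 6 fits alone the limma adjusted p lay between 0.0542 and 0.141. The call was also lost with a term for the Eif2s3y pattern, where the log2 change was 0.46.

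On the B chip limma called 0 of 19 measured pathway genes, where 0.281% of all probe sets tested were called, and 3 had an unadjusted p under 0.05, against 7.39% of all probe sets tested. In rest it called 0 of 54, against 0.313% of all, and 6 had an unadjusted p under 0.05, against 10.5% of all. Their median log2 changes were 0.06 and 0.02, against 0.00 over all probe sets tested in each table. In rest Ccn2 read 117, 133 and 131 in the knockouts, against 124, 94.7 and 112 in the wild types, with overlap (log2 change 0.19 with an SE of 0.145, adjusted p by limma = 0.721). Lpar6 was the only further receptor of LPA or S1P that could be tested. It read 352, 479 and 442 in knockout cortices, against 318, 307 and 423 in wild-type cortices, with overlap (log2 change 0.27, SE 0.184, limma adjusted p = 0.846). Its signals in rest were 114, 145.7 and 139.7 in the knockouts, against 153, 119 and 146 in the wild types, also with overlap and with the opposite sign (log2 change -0.06, SE 0.151, limma adjusted p = 0.934). S1pr2 was listed in knockout replicates 1 and 2 of the B chip, at 170.3 and 218, and nowhere else. Lpar2, Lpar3 and S1pr4 were blank on all arrays.

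Marker genes of other cell types moved with genotype in the same arrays. In the counts of marker genes that follow, rose and fell mean called at a limma adjusted p under 0.05. Each gene is read by its brightest tested probe set. Of all probe sets tested, 3.02% were called in either direction on the A chip, 0.281% on the B chip and 0.313% in rest. In bulk tissue, fewer cells of a type and less RNA per cell cannot be told apart. Of 10 measured genes of meningeal fibroblasts on the A chip 9 rose, with a median log2 change of 1.32, led by Col3a1 (2.01), Col1a1 (1.82), Slc6a13 (1.79) and Col1a2 (1.53), each with a limma adjusted p under 0.05. A sum was taken of the 8 genes of the list that were listed on all arrays. It was 10760, 9838 and 9156 in knockout replicates 1, 2 and 3, against 3998, 3629 and 4187 in the wild-type cortices. In rest 5 of 13 rose, with a median of 0.75, and the changes of all 13 were above 0, the smallest that of Foxd1 (0.31). The sum of 12 genes was 14182 to 15453 in the knockouts and 6213 to 11175 in the wild types. On the B chip Tbx18 alone could be measured from that list. It rose (log2 change 2.23, limma adjusted p = 1.1e-05), and its signal was 829 to 922 in knockout cortices and 157 to 196 in wild-type cortices. The part of these cells in the values of Lpar1 and S1pr3 was not tested.

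Several oligodendrocyte and myelin genes fell in the knockouts of both tissues. Of 6 measured on the A chip 3 were called lower, Mbp (-3.17), Ugt8a (-0.99) and Tspan2 (-0.52), and 0 were called higher. The median log2 change was -0.57. Cldn11 had the opposite sign and did not pass (log2 change 0.43, limma adjusted p = 0.218). Gjb1, Mog and Myrf were blank on all arrays of that chip. The sum of 5 genes was 950 to 1328 in knockout cortices and 2561 to 3260 in wild-type cortices, so in the cortex Lpar1 and the myelin sum lay on opposite sides of the wild type. In rest 3 of 10 fell, Mal (-2.33), Sox10 (-1.10) and Tspan2 (-0.86), with a median of -2.06. The sum of 9 genes was 2183.5, 3883 and 9333 in knockout replicates 1, 2 and 3, against 15678, 15604 and 15153 in the wild types. Bright genes weigh most in such a sum: Mbp and Cnp averaged 6547 and 4084 in wild-type rest. Knockout replicate 3, in which the Lpar1 signals of rest were highest among the knockouts, also had the highest myelin sum among them. Its sums of astrocyte (20740), oligodendrocyte precursor (6381), endothelial (3471), pericyte (2503) and microglial (4284) genes were also the highest among the knockouts. Those of meningeal, choroid plexus and neuronal genes were not. Knockout replicates 1 and 2 came in opposite order, with 217 and 201 for Lpar1 1448606_at and 2183.5 and 3883 for the myelin sum. Lpar1 itself is not on the myelin list, and the part of myelinating cells in its value was not tested.

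**Figure D4:**
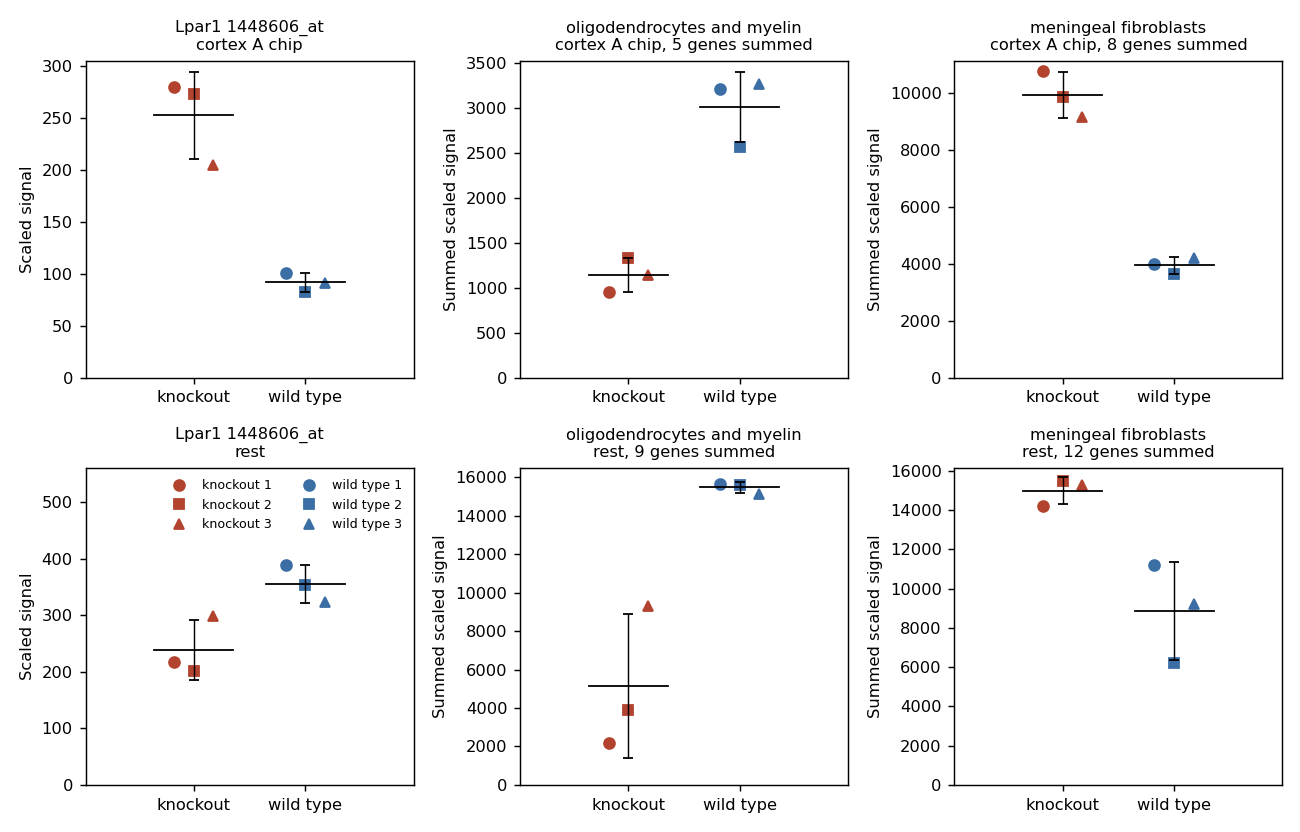
Signal of Lpar1 probe set 1448606_at and summed signals of oligodendrocyte and meningeal fibroblast genes on every array of the cortex A chip (top) and the rest table (bottom), knockout in red left of wild type in blue, with lines for the mean and bars for the SD. The meningeal sums are higher in the knockouts of both tables and the myelin sums lower, and in rest knockout replicate 3 has the highest Lpar1 signal (299) and the highest myelin sum (9333) among the knockouts.

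Markers of astrocytes, the cells known for Plpp3, were called in cortex, and the difference between the tissues was not tested for the list. On the A chip 3 of 11 rose, Gjb6 (0.89), Gja1 (0.63) and Aqp4 (0.53, brightest probe set), with a median of 0.16, and their sum was 8685 to 10469 in knockout cortices and 7136 to 7770 in wild-type cortices. In rest 0 of 11 passed, with a median of -0.05, and the sum was 17379 to 20740 in the knockouts and 19598 to 20904 in the wild types. Endothelial markers had 3 of 9 genes called higher in knockout cortex (median 0.46) and 0 of 9 called in rest (median 0.13), while S1pr1 did not pass in either.

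Further lists also moved with genotype in these arrays. Of 8 measured genes of microglia and macrophages 5 rose in knockout cortex on the A chip, Mrc1 (1.20), C1qa (0.85), C1qb (0.72), Csf1r (0.68) and Cd68 (0.55), with a median of 0.61, and in rest 0 of 7 passed, with a median of 0.30. The sum of 6 of these genes was 3284 to 3688 in knockout cortices and 1946.5 to 2277 in wild-type cortices. Among pericyte and smooth muscle genes 1 of 4 rose on the A chip, Pdgfrb (1.16), with a median of 0.37, Acta2, Kcnj8, Myh11 and Tagln were blank on all arrays, and in rest 0 of 4 passed. Choroid plexus genes had 0 of 3 called on the A chip, 1 of 3 on the B chip, Kcnj13 (1.25), which rose, and 0 of 8 in rest. Their median log2 changes were 0.87 on the A chip, 1.25 on the B chip and 0.22 in rest. On the B chip Ttr (1.33) and Clic6 (1.05) were also higher in the knockouts and did not pass. Oligodendrocyte precursor genes fell for 2 of 5 on the A chip, C1ql1 (-0.66) and Olig1 (-0.50), 2 of 2 on the B chip, Gpr17 (-1.63) and Bcas1 (-1.51), and 2 of 7 in rest, Gpr17 (-2.06) and Olig2 (-1.05). The part of these cells in the values of Lpar1, S1pr3, Ccn2 and Myl9 was not tested.

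The genes whose pattern over the 12 arrays of the A chip and rest was closest to that of Lpar1 1448606_at were then found. Likeness was the root mean square difference of log2 signals, each centred on its table's mean, and 10064 probe sets were compared. The second Lpar1 probe set was closest, at 0.258, and the median over all probe sets was 0.552. A flat pattern, at its table's mean on every array, would be at 0.531. The next were Aqp4 (0.288), Mylk (0.3), Gfap (0.302), Plat (0.326), Gja1 (0.327), Ehd4 (0.327), Rell1 (0.329) and Snx5 (0.33). Each is the value of 1 probe set, and other probe sets of a gene can differ. The Aqp4 probe set found here, for a water channel of astrocytes, averaged 728 in knockout and 349.9 in wild-type cortex and 829 in knockout and 931 in wild-type rest, with log2 changes of 1.03 and -0.21. The brightest Aqp4 probe set averaged 1554 in knockout and 1069 in wild-type cortex, and its changes were smaller, 0.53 in cortex and -0.08 in rest. The Gfap probe set found here, for an intermediate filament of astrocytes, had log2 changes of 0.89 in cortex and -0.39 in rest. The brightest Gfap probe set had 0.53 in cortex on the A chip (adjusted p by limma = 0.0976) and -0.48 in rest, and one on the B chip had 0.13, and none of these 3 passed. Of the 8 genes, Ehd4 had a change above 0 in rest (0.07) and the others one below it, between -0.39 and -0.05. The genes were picked by likeness to Lpar1 over these same arrays, so a shared direction follows largely from the choice.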

How the data were processed

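Probe set signals of 18 arrays came in 3 tables of 6 arrays. The deposited values are linear intensity values. The submitters' processing notes name MAS5, and its version and settings are not given in the sources used here. Why cells are blank is not stated. Control probe sets were left out. Within each table, arrays were given the same mean signal, taken over probe sets with a value on each of the 6 arrays after dropping the lowest and highest 2%, and transformed as log2(signal + 16). Printed signals are scaled.

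A probe set was tested with at least 2 listed arrays of each genotype. Knockout was compared with wild type by limma 3.58.1 in R 4.3.3 (lmFit, eBayes with intensity trend) over the whole table, and the change in rest minus that in cortex as an interaction in a joint fit. Benjamini-Hochberg adjustment ran over every probe set tested, with calls under 0.05. The code was tested on simulated data. Genes came from the array annotation, with symbols updated from RefSeq by gene identifier, and 20380, 14661 and 34945 probe sets had 1 gene, 691, 245 and 932 several and 1555, 7605 and 9160 none. For lists, each gene was read by its brightest tested probe set.

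The members and lists were chosen with earlier results of these data known. Named genes were all member probe sets, called pathway genes, up to 4 members per marker list, and the 8 genes most like Lpar1. Further marker and pathway genes named in the text were chosen after their values were seen. Alternatives covered scaling, offset, blanks, a filter on dim probe sets, variance models, array weights, a replicate block, a sex-marker term and each array left out. Same-numbered knockout and wild-type arrays did not deviate together throughout (correlation of deviations from group means -0.01 to 0.25), so the numbers were not taken as pairs.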

Additional observations from a re-analysis of the deposited data

Results flagged for a closer look

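The change of Lpar1 1448606_at in rest minus that in cortex was -1.87 on the log2 scale, with every knockout above every wild type in cortex and below every wild type in rest. Lpar1 was chosen for this pattern, so the difference was not tested. Tissue and array design are joined in it.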

How the results depend on the processing

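The alternatives changed few of the values above. The 0 calls among members on the A chip, in rest and for both differences between the tables held in all 20 alternatives each. The S1pr3 call on the B chip held in 19 of 20, with a log2 change of 0.91 to 1.21 and a limma adjusted p of 0.000723 to 0.0754, and 0 member probe sets were called there with the sex-marker term. That term compares knockout replicate 3 alone with the wild types. With it Lpar1 1448606_at changed by 1.04 in cortex and by -0.23 in rest, and with an offset of 64 by 1.02 in cortex. Lpar1 1417143_at changed by 0.64 in cortex with that offset, and 1426110_a_at by -0.49 in rest with blanks set to a low signal and by -0.0026 with the sex-marker term. When 1 array was left out, Lpar1 1448606_at changed by 1.23 to 1.45 in cortex and by -0.72 to -0.45 in rest. Lpar1 1417143_at then changed by 0.87 to 1.185 in cortex and by -0.47 to -0.12 in rest. For 1426110_a_at the range in rest was -0.25 to -0.17, over those fits that could be made. The sex-marker term also turned the sign of Lpar1 1417143_at (0.11), S1pr1 (0.14) and Plpp3 1429514_at (0.048) in rest. Without 1 array the uncalled changes ranged from -0.19 to -0.019 for S1pr1 in rest, and for Plpp3 1429514_at from 0.10 to 0.22 in cortex and from -0.060 to -0.0051 in rest. S1pr1 in cortex turned without knockout replicate 3 (0.02) or wild-type replicate 3 (0.048), with -0.20 to 0.048 over the fits without 1 array, and its change in rest minus that in cortex, near 0, turned with no further scaling (0.0051), median centring (0.021), quantile normalization (0.0094), the sex-marker term (0.40), and without knockout replicate 1 (0.0055), knockout replicate 2 (0.18) or wild-type replicate 2 (0.11), with -0.22 to 0.18 over the fits without 1 array. The pathway genes called on the A chip numbered 1 with quantile normalization, the replicate block, the sex-marker term and in each fit without 1 array (1 to 1); in all of these Ccn2 stayed called and Myl9 did not. With blanks set to a low signal Myl9 was also lost (limma adjusted p = 0.0883), while 2 of 107 pathway probe sets tested were called. Ccn2 stayed called there (limma adjusted p = 0.0113), so the calls include a further pathway probe set, which was not identified. With the replicate block S1pr3 stayed called on the B chip (limma adjusted p = 0.0263), and the numbers are not taken as pairs. Dim probe sets with blanks, among them Lpar4 and S1pr5, have values on only some arrays.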
